A study of Mus musculus with 4 samples.

Results

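The proteasome genes were the features named Psma, Psmb, Psmc, Psmd, Psme, Psmf or Psmg with a number and an exon length, 48 of 28030 such features. Of the 48, 46 were listed by plain name, and Psmb9 and Psmd14 were each listed in 2 overlapping rows with coordinates in the name, whose reads were summed. The set was fixed by name, not by level. Reads were found for 46 members, and all 46 passed the filter on low counts that left 11112 features for testing. The other 2, Psma8 (the testis form of an alpha subunit) and Psmb11 (the thymus form of a catalytic subunit), had 0 exon reads in all 4 libraries, and the floor of 3 reads corresponded to 0.381 to 0.733 CPM, that is exon reads scaled to library depth.

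The cells were CD4+Foxp3+ regulatory T cells (Tregs, which hold other lymphocytes in check) of C57BL/6 mice aged 8 weeks, sorted by flow cytometry. The groups were WT and Csnk2b-deficient, labelled Csnk2b-/-, and Csnk2b encodes the regulatory subunit of protein kinase CK2. Each genotype had 1 library from the spleen (replicate 1) and 1 from the tracheal lymph nodes (replicate 2). The labels give neither the way the gene was deleted, nor the cells in which it was, nor the number of mice behind a library. They name Trizol with TruSeq v2 for samples 1 and 2, and RNeasy micro with SMARTer and Nextera XT for samples 3 and 4. If those numbers follow the order of listing, the spleen and lymph node libraries were made with different kits, and tissue and kit cannot be told apart.

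Proteasomes are the barrel-shaped proteases that degrade ubiquitin-tagged proteins. Alpha rings gate the barrel, beta rings hold the proteolytic sites, and a regulatory particle with a base and a lid binds, unfolds and feeds the substrate. In lymphocytes, and after interferon gamma, the constitutive catalytic subunits Psmb5, Psmb6 and Psmb7 are replaced during assembly by Psmb8, Psmb9 and Psmb10, which makes the immunoproteasome that trims peptides for MHC class I.

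Total exon reads were 4737814 to 6750695 per library. At least 1 read was found for 14961 to 15514 features in the spleen libraries, 14334 in the Csnk2b-deficient and 12155 in the WT lymph node library. Csnk2b itself had 649 reads (WT) and 148 reads (Csnk2b-deficient) in the spleen libraries, 667 and 283 in those of the lymph node (log2 change -1.54 ± 0.26, SE, edgeR adjusted p = 0.0643). The 7 Treg markers summed to 3699 to 6476 CPM, with Foxp3 at 811 and 374 CPM in spleen libraries, 570 and 123 CPM in lymph node libraries (WT, then Csnk2b-deficient). Only 25.9% of Foxp3 exon reads were placed uniquely, and its span overlaps 3 other listed features. Its log2 genotype ratios were -1.12 (spleen) and -2.21 (lymph node) on total reads, but -0.63 and -0.79 on uniquely placed reads. On total reads Foxp3 was called lower in Csnk2b-deficient Tregs (log2 -1.66 ± 0.25, SE, edgeR adjusted p = 0.0385). DESeq2 and limma-voom called it lower too. Summed B cell markers were 15.6 and 16.95 CPM in spleen libraries, 148 and 98.7 CPM in lymph node libraries, with Pax5 at 0. Myeloid markers summed to 10.5, 6.57, 46.2 and 298 CPM in WT and Csnk2b-deficient spleen and then lymph node, the last mostly Lyz2. CD8 markers were 12.5 to 52.5 CPM, NK markers 1.22 to 7.02 with Ncr1 and Klra8 at 0, and erythroid genes 0.507 to 70.4. Plasma cell markers were 0 to 73.9 CPM, and their members differed. In the spleen libraries the sum was nearly all Prdm1 (57.3 and 52.2 CPM), with Igj at 0.507 and 1.21 CPM. In the Csnk2b-deficient lymph node library Igj had 36.0 and Prdm1 37.7 CPM. Whether such cells had a part in the values below was not tested.

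Proteasome gene levels lay close together between the genotypes and far apart between the tissues. None of the 46 tested members was called between Csnk2b-deficient and WT Tregs (0 higher, 0 lower, edgeR quasi-likelihood test, Benjamini-Hochberg adjusted p below 0.05), beside 0.144% of all features tested. Between the tissues, 37 members were higher and 4 lower in the lymph node libraries, where 23.3% of all features tested were called higher and 22.2% lower. Each genotype had 1 library per tissue, so the 2 libraries per genotype (n = 2) come from different tissues, and the SE reflects the disagreement of the tissues about the genotype change, moderated over features.

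All 7 alpha subunits with reads were higher in the lymph node, by 2.25 to 2.73 on the log2 scale. Values in 4 libraries are given throughout in the order WT spleen, Csnk2b-deficient spleen, WT lymph node and Csnk2b-deficient lymph node. Psma1 had 72.6, 86.5, 408 and 369 CPM, Psma2 had 111, 119, 647 and 612 CPM, and Psma3 had 117, 113, 630 and 642 CPM. Psma4 had 94.8, 84.6, 455 and 402 CPM, and Psma5 had 60.8, 59.0, 437 and 362 CPM. Psma6 had 82.3, 83.9, 472 and 367 CPM, and Psma7 had 99.3, 99.6, 531 and 558 CPM. For each alpha subunit both lymph node libraries lay far above both spleen libraries (both lay above for 35.9% of all features tested). The genotypes lay close together within a tissue. The largest alpha-ring genotype value was -0.17 ± 0.21 for Psma6 (SE, n = 2 per genotype, edgeR adjusted p = 0.92), from a spleen pair at 0.03 and a lymph node pair at -0.36. Only 18.5% of Psma3 and 26.2% of Psma5 exon reads were placed uniquely, and both overlap another listed feature.

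Among the structural beta subunits, which complete the inner rings without a catalytic site, 3 of 4 were higher in the lymph node and Psmb4 was lower. Psmb1 had 133, 136, 650 and 715 CPM, and Psmb2 had 48.8, 46.4, 425 and 426 CPM. Psmb3 had 86.9, 83.4, 505 and 420 CPM. Psmb2 had the largest tissue difference among members higher in the lymph node (log2 3.16 ± 0.22, edgeR adjusted p = 2.98e-06). Psmb4 ran the other way with 111, 101, 35.9 and 31.8 CPM, a 3.13-fold lower level in the lymph node libraries (log2 -1.65 ± 0.27, SE, edgeR adjusted p = 0.000526). The 4 genes had pair ratios between genotypes of -0.14 to 0.03 (spleen) and -0.27 to 0.14 (lymph node). Psmb3 had the largest joint value, -0.17 ± 0.20 (edgeR adjusted p = 0.92).

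The catalytic subunits are shown as RPKM, the CPM per kilobase of exon computed here, the scale that allows genes to be set against each other. Psmb8, which takes the place of Psmb5, had 2701, 1825, 3549 and 3375 exon reads, or 125, 115, 317 and 270 RPKM. Psmb5, the constitutive subunit with chymotrypsin-like activity, had 388, 269, 646 and 603 reads, or 53.4, 50.5, 171 and 143 RPKM. On total reads Psmb8 stood above Psmb5 in every library, with ratios of 2.35, 2.29, 1.85 and 1.89. On uniquely placed reads, which made up 41.0% of Psmb8 and 90.7% of Psmb5 reads, the ratios were 1.24, 1.12, 0.746 and 0.799, so that Psmb8 stood below Psmb5 in both lymph node libraries. Psmb10 had 672, 449, 1395 and 1073 reads, or 67.1, 61.2, 268 and 185 RPKM. Psmb7, its constitutive counterpart with trypsin-like activity, had 459, 355, 684 and 604 reads, or 48.0, 50.6, 138 and 109 RPKM. On total reads Psmb10 also stood above Psmb7 in every library, with ratios of 1.3995, 1.21, 1.95 and 1.70. On uniquely placed reads (35.1% of Psmb10 and 96.4% of Psmb7 reads) it stood below Psmb7 in every library, with ratios of 0.510, 0.436, 0.738 and 0.589. Uniquely placed reads were divided by the full exon length, so a low unique share by itself lowers Psmb8 and Psmb10 against their counterparts. The order on uniquely placed reads therefore cannot decide which gene of a pair had the higher level.

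Psmb9 and Psmb6, the third pair, changed order between the tissues on total reads. Psmb9 lies in the MHC region beside Psmb8 (chromosome 17, 34318933 to 34324709 and 34334666 to 34338399, mm9). Psmb9 had 1427, 1140, 1322 and 1766 reads, or 49.5, 53.9, 88.3 and 106 RPKM. Psmb6, the constitutive subunit with caspase-like activity, had 468, 311, 1910 and 2076 reads, or 31.7, 28.7, 249 and 243 RPKM. The ratio of Psmb9 to Psmb6 was 1.56 and 1.88 in the spleen libraries and 0.354 and 0.435 in the lymph node libraries. The level of Psmb6 rose 8.15-fold between the tissues (log2 3.03 ± 0.21) and that of Psmb9 rose 1.87-fold (log2 0.90 ± 0.20, SE, edgeR adjusted p = 0.00309). The 2 rows summed for Psmb9 cover nearly the same span (34318932 to 34324697 and 34318933 to 34324709). Nearly all Psmb9 reads were placed more than once, so no uniquely placed value is given for it. The split between those rows also differed, with 706 and 721 reads in WT spleen and 763 and 377 in Csnk2b-deficient spleen. Psmb8, Psmb9 and Psmb10 each overlap 1 other listed feature (Gm20496, Tap1 and Gm16156).

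**Figure D1:**
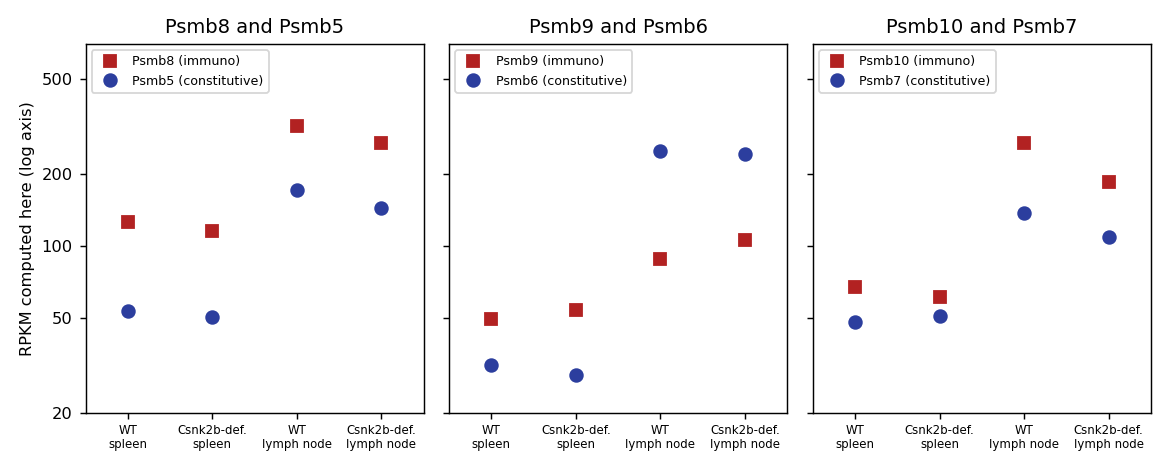
RPKM (CPM per kilobase of exon, total exon reads, log axis) of the 3 immunoproteasome subunits (red squares) and their constitutive counterparts (blue circles) in each of the 4 libraries, 1 point per library. On these total reads Psmb8 and Psmb10 lie above Psmb5 and Psmb7 in all libraries. On uniquely placed reads Psmb10 was below Psmb7 in all, and Psmb8 below Psmb5 in the lymph node. Those values use the full exon length, which lowers genes with few uniquely placed reads. Psmb6 moves from below Psmb9 in the spleen (31.7 and 28.7) to above it in the lymph node (249 and 243).

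The balance of immunoproteasome to constitutive subunits was nearly the same in both genotypes on total reads. The geometric mean of Psmb8, Psmb9 and Psmb10 over that of Psmb5, Psmb6 and Psmb7 was 1.72 (WT) and 1.73 (Csnk2b-deficient) for spleen Tregs, a log2 difference of 0.0058. In the lymph node it was 1.09 and 1.12, a log2 difference of 0.042. The lymph node ratio was lower in both genotypes, with log2 differences of -0.67 in WT and -0.63 in Csnk2b-deficient Tregs. With 1 library per genotype and tissue these are values with no test, and other ways of forming the ratio gave genotype differences of -0.19 to 0.11 (spleen) and -0.11 to 0.16 (lymph node). The tissue difference of the ratio rested on 1 pair, since without Psmb9 and Psmb6 it was 0.07 in WT and 0.11 in Csnk2b-deficient Tregs. On uniquely placed reads, with Psmb9 and Psmb6 left out, the ratio was below 1 in all 4 libraries (0.796, 0.700, 0.742 and 0.686). For the same genes it was 1.81, 1.66, 1.90 and 1.79 on total reads. Both use the full exon length, so the low unique shares of Psmb8 and Psmb10 lower the ratio on uniquely placed reads. The ratio also depends on the exon lengths, being 2.08, 2.09, 1.31 and 1.35 with the longest coding transcripts of GENCODE M21. Single pairs leaned both ways between genotypes, with Psmb9 to Psmb6 at 0.27 and 0.30 higher and Psmb10 to Psmb7 at -0.21 and -0.20 on the log2 scale (spleen, lymph node).

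In the genotype test, Psmb10 had the largest value of the 6 catalytic genes, -0.34 ± 0.22 (SE, n = 2 per genotype, edgeR adjusted p = 0.89), from -0.13 (spleen pair) and -0.53 (lymph node pair). Psmb8 had -0.17 ± 0.18 and Psmb9 0.19 ± 0.20. Of the constitutive genes, Psmb5 had -0.17 ± 0.24, Psmb6 -0.09 ± 0.20 and Psmb7 -0.13 ± 0.24. The edgeR adjusted p was 0.89 or above for all 6. All 6 were higher in the lymph node, by 2.49 (Psmb7) to 8.15-fold (Psmb6) for the constitutive and 1.87 (Psmb9) to 3.48-fold (Psmb10) for the immunoproteasome subunits.

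Because the tissue difference separated subunits of 1 ring, the start regions of 5 of the 6 catalytic genes are printed, and that of Psmb7 was not used here. They come from RefSeq (GRCm38.p6), read 5′ to 3′ on the strand given, and cover the bases before the annotated start. Psmb9 and the peptide transporter gene Tap1 start 225 bases apart on opposite strands, with the stretch between them shown on the plus strand and a CCAAT box (CCAAT) in capitals. In Psmb8 the capitals mark the letters of a gamma-activated site (TTCNNNGAA), and in Psmb5 and Psmb6 those of a short antioxidant element (TGACNNNGC, bound by NRF factors). Psmb10 held none of the 4 patterns searched and has no capitals.
Psmb9 and Tap1 (chr17:34187331-34187555, plus strand): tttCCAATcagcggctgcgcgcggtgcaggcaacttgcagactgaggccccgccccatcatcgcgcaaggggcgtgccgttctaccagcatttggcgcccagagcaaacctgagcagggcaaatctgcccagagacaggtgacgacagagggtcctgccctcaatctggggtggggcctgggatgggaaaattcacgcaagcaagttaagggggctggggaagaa
Psmb8 (chr17:34197945-34198194, plus strand): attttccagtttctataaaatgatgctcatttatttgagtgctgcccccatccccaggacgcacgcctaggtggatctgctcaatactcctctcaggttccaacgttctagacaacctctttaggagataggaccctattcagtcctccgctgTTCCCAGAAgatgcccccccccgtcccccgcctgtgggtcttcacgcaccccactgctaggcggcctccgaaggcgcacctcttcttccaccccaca
Psmb5 (chr14:54617996-54618245, minus strand): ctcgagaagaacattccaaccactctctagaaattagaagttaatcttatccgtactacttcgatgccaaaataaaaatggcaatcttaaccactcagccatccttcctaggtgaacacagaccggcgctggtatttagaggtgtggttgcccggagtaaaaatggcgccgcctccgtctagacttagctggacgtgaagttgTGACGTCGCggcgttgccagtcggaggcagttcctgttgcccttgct
Psmb6 (chr11:70525107-70525356, plus strand): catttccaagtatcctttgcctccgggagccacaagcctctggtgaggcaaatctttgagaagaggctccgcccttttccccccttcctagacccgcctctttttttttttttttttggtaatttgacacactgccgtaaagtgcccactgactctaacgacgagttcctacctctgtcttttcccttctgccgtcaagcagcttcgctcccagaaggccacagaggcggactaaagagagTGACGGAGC
Psmb10 (chr8:105938393-105938642, minus strand): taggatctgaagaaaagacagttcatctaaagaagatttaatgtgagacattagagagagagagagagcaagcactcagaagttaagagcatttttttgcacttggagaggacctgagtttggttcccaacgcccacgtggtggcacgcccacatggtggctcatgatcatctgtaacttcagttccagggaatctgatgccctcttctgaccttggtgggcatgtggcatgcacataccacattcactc

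Psmb5 and Psmb6 carry the letters of the same element and differed in their tissue values (log2 1.59 and 3.03). Both strands were searched in the 250 bases before each start, for the 40 of 48 members and 27025 genes with such a window. TGACNNNGC was found in 5 members (12.5%, beside 11.5% of all windows), namely Psmb5, Psmb6, Psmc6, Psmd12 and Psmd9. TTCNNNGAA was found in 2 members, Psmb8 and Psmg1 (5%, beside 8.13%). An interferon element (GAAANNGAA) was found in Psmb3, Psmd4 and Psmd9 (7.5%, beside 8.18%), and CCAAT in 14 members (35%, beside 37.5%). No pattern contains another, and these shares describe letters in the windows and not bound sites. Psmb9 and Tap1 share their start region and differed in direction between the tissues, with 181, 197, 323 and 387 CPM for Psmb9 and 534, 572, 263 and 195 CPM for Tap1 (tissue log2 0.90 and -1.29). The span of Psmb9 overlaps that of Tap1 in the deposited tables, and 98.7% of Tap1 reads were unique.

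The 6 base ATPases, which unfold substrates and drive them into the barrel, were all higher in the lymph node, by 1.62 to 2.28 on the log2 scale. Psmc1 had 77.0, 77.8, 350 and 389 CPM, Psmc2 had 80.3, 81.5, 307 and 330 CPM, and Psmc3 had 109, 107, 286 and 388 CPM. Psmc4 had 72.8, 64.0, 256 and 430 CPM, Psmc5 had 75.1, 58.5, 281 and 344 CPM, and Psmc6 had 75.9, 73.0, 256 and 291 CPM. Their spleen levels lay between 58.5 and 109 CPM, and the Csnk2b-deficient lymph node library was the highest of the 4 for every one of them. The lymph node pair ratios were 0.10 to 0.75, compared with -0.36 to 0.02 in that of the spleen. Psmc4 had the largest joint genotype value, 0.29 ± 0.25 (SE, n = 2 per genotype, edgeR adjusted p = 0.894), from -0.18 (spleen pair) and 0.75 (lymph node pair).

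Of the base subunits without ATPase activity, the scaffold genes Psmd1 and Psmd2 were higher in the lymph node and Psmd4 was not called. Psmd1 had 80.3, 71.3, 200 and 185 CPM (tissue log2 1.35 ± 0.23), and Psmd2 had 175, 177, 313 and 359 CPM (0.93 ± 0.20). Psmd4, a ubiquitin receptor, had 100, 103, 139 and 149 CPM (0.50 ± 0.23, SE, edgeR adjusted p = 0.0922). Although uncalled, Psmd4 had both lymph node libraries above both spleen libraries, as had 35.9% of all features tested. Genotype values were -0.14 ± 0.22 for Psmd1, 0.11 ± 0.20 for Psmd2 and 0.07 ± 0.23 for Psmd4.

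The lid removes ubiquitin chains, and the tissue values of its 8 genes ran from -3.37 to 2.42. Psmd14, the deubiquitinase, had 61.3, 70.2, 319 and 389 CPM, and Psmd11 had 66.8, 73.5, 280 and 283 CPM. Psmd7 had 54.8, 49.99, 146 and 128 CPM, and Psmd6 had 57.6, 53.1, 157 and 114 CPM. Psmd12 had 60.9, 57.4, 108 and 146 CPM. These 5 were higher in the lymph node by 1.08 to 2.42 on the log2 scale. Both lymph node libraries lay above both spleen libraries for these 5, and also for Psmd8 and Psmd13 (35.9% of all features tested). Psmd8 had 92.8, 94.3, 212 and 120 CPM, and Psmd13 had 68.7, 68.5, 84.8 and 167 CPM. Both were called higher at 0.77 ± 0.26 and 0.80 ± 0.29 (edgeR adjusted p = 0.0318 and 0.0415), with the larger part of the difference in a single lymph node library. For Psmd8 the tissue value was 1.19 in WT and 0.35 in Csnk2b-deficient Tregs, and for Psmd13 it was 0.30 and 1.28. Psmd13 was not called with median-of-ratios size factors, DESeq2 or upper-quartile scaling, nor Psmd8 with upper-quartile scaling.

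Psmd3 (chromosome 11, 98543868 to 98557293, mm9) departed furthest, with 772, 452, 39 and 34 exon reads, or 97.9, 78.2, 9.53 and 7.45 CPM. It was 10.4-fold lower in the lymph node libraries (log2 -3.37 ± 0.35, SE, edgeR adjusted p = 2.27e-05), with -3.31 in WT and -3.33 in Csnk2b-deficient Tregs. Its product is a lid component that is present once in each regulatory particle. Nearly all of its reads (99.9%) were unique. Between genotypes the largest lid value was 0.49 ± 0.29 for Psmd13 (SE, n = 2 per genotype, edgeR adjusted p = 0.89), from -0.01 (spleen pair) and 0.97 (lymph node pair). Psmd8 went the other way in the lymph node pair, at -0.82, with 0.02 in the spleen pair. Psmd3 itself had -0.32 and -0.34 in the pairs (joint -0.34 ± 0.33).

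**Figure D2:**
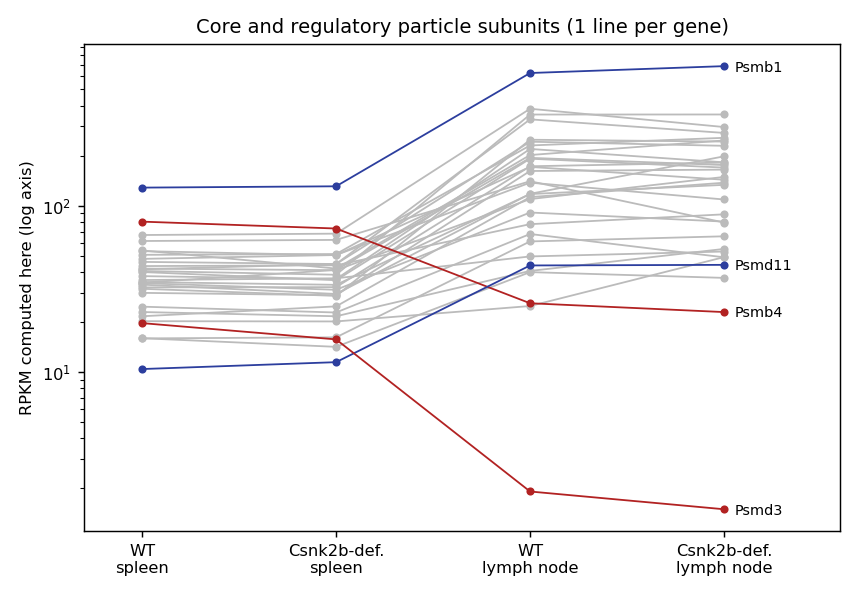
RPKM (CPM per kilobase of exon, log axis) of the 31 core and regulatory particle subunits in the 4 libraries, 1 line per gene, with lines joining a gene's 4 libraries only to guide the eye. Psmb1 was the highest in each library, and Psmd3 and Psmb4 (red) went down where the other lines went up.

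Levels of subunits that are built into the same particle had a smaller SD across genes in the spleen than in the lymph node libraries. Over the 31 core and regulatory particle subunits (immunoproteasome subunits left out), the median was 35.8 and 36.3 RPKM (spleen, WT and Csnk2b-deficient) or 138 and 143 (lymph node). The SD of the log2 levels across these genes was 0.74 in both spleen libraries, and 1.58 and 1.59 in the lymph node libraries. Psmb1 had the highest level in each library, 129 and 131 (spleen) or 628 and 690 (lymph node). The lowest was Psmd11 in the spleen, at 10.4 and 11.5, and Psmd3 in the lymph node, at 1.92 and 1.501. Psmd3 lay far below the lymph node medians and is included in the SDs. How much of the lymph node SD rests on this 1 gene was not tested. On uniquely placed reads over the full exon length the SDs were 0.91, 0.92, 1.56 and 1.60. The lowest in the spleen was then Psma3, of whose reads 18.5% were unique. All proteasome genes together took 0.478% and 0.472% of exon reads in the spleen libraries, and 1.19% and 1.10% in the lymph node libraries. In such bulk libraries, more cells with high levels and more RNA per cell cannot be told apart.

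Assembly chaperones had low counts in the spleen libraries (45 to 330 reads) and no common direction. Psmd10, which helps to build the base, had 21.7, 23.2, 194 and 153 CPM and was higher in the lymph node by 2.94 ± 0.27 on the log2 scale. Psmg2 had 22.1, 20.4, 103 and 83.7 CPM, and Psmg3 had 9.51, 9.34, 56.0 and 43.2 CPM. Both belong to the chaperones of the alpha ring, and both were higher (2.13 ± 0.30 and 2.38 ± 0.40). The other alpha ring chaperones were not called, with 17.3, 14.4, 19.8 and 12.9 CPM for Psmg1 and 9.39, 7.78, 12.7 and 11.0 CPM for Psmg4. Nor was Psmd9, a base chaperone with 14.8, 15.9, 13.7 and 19.95 CPM. Psmd5, another base chaperone, had 330, 198, 31 and 86 reads, or 41.9, 34.3, 7.58 and 18.9 CPM. It was lower in the lymph node (log2 -1.63 ± 0.48, SE, edgeR adjusted p = 0.0171), by -2.41 in WT and -0.85 in Csnk2b-deficient Tregs. Its genotype value of 0.45 ± 0.47 (edgeR adjusted p = 0.913) combined -0.29 (spleen pair) with 1.28 (lymph node pair), where WT had 31 reads.

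The activators cap the barrel in place of, or beside, the regulatory particle. Psme1 and Psme2, the interferon-inducible pair that forms the cytosolic cap, had 294, 286, 704 and 553 CPM (Psme1) and 199, 209, 1012 and 845 CPM (Psme2). Both were higher in the lymph node (log2 1.11 ± 0.19 and 2.18 ± 0.19, edgeR adjusted p = 0.000642 and 8.16e-06). Their genes lie beside each other on chromosome 14 (56196960 to 56200366 and 56206278 to 56209950, mm9). They form 1 complex, with 133, 129, 319 and 250 RPKM for Psme1 and 113, 118, 574 and 479 for Psme2, so their order changed between the tissues on total reads. Only 33.6% of Psme2 reads were unique, and on these its tissue value was 1.78. It then stood below Psme1 in every library, with ratios of 0.353, 0.379, 0.554 and 0.591. These ratios use the full exon length, so the low unique share of Psme2 lowers them. Psme4, a nuclear cap, had 101, 100, 119 and 90.1 CPM and was not called.

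Psme3, the nuclear homologue of Psme1 and Psme2, had 943, 638, 392 and 218 reads, or 120, 110, 95.8 and 47.8 CPM. The Csnk2b-deficient lymph node library was the lowest, and both lymph node libraries lay below both spleen libraries, as for 40.7% of all features tested. Psme3 was called lower in the lymph node at -0.76 ± 0.28 on the log2 scale (SE, edgeR adjusted p = 0.0469), a call absent with median-of-ratios size factors, DESeq2 and uniquely placed reads. It also had the lowest unadjusted p of all members in the genotype test, 0.0771, at -0.55 ± 0.28 (edgeR adjusted p = 0.89), from -0.12 (spleen pair) and -0.998 (lymph node pair). Psmf1, an inhibitor that binds the barrel, had 40.1, 33.0, 166 and 160 CPM, a tissue value of 2.16 ± 0.25 and a genotype value of -0.16 ± 0.24.

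The comparison of genotypes asked whether proteasome transcripts changed with loss of the CK2 regulatory subunit. In the joint fit the 46 members ran from -0.55 (Psme3) to 0.49 (Psmd13) on the log2 scale, with a median of -0.11 beside 0.01 for all features tested. Adjusted p ranged from 0.890 to 0.995, and 0 members had an unadjusted p below 0.05 with edgeR. The DESeq2 Wald test and limma-voom also called 0 members, with 0 at an unadjusted p below 0.05, while they called 0.45% and 0.558% of all features tested. The SE of the members ranged from 0.18 to 0.66. Csnk2b itself was not called at -1.54 ± 0.26 (edgeR adjusted p = 0.0643), so member shifts of several SE could also be missed. The lack of calls does not show equal levels. Over all features edgeR called 14 higher and 2 lower, or 4 higher and 0 lower with median-of-ratios size factors.

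**Figure D3:**
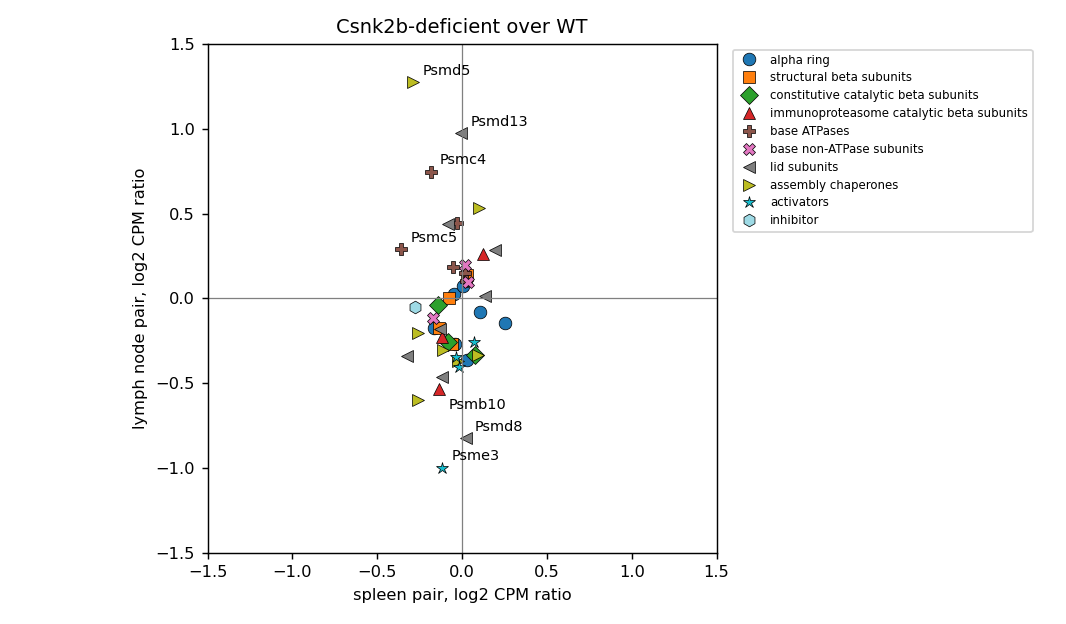
Log2 ratio of CPM, Csnk2b-deficient over WT, of the 46 members with reads in the spleen pair (x axis) and the lymph node pair (y axis), 1 point per gene, marked by role. Values stay between -0.36 and 0.25 on the x axis and spread from -0.998 (Psme3) to 1.28 (Psmd5) on the y axis.

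Within the spleen the members kept close together. All 46 had a spleen ratio within 0.5 log2 units of 0, beside 85.4% of all features tested, with a median of -0.04 and an SD across genes of 0.13 (all features 0.44). In the lymph node pair 38 of 46 (82.6%) lay within 0.5, beside 47.6% of all features, with a median of -0.13 and an SD of 0.42 (all features 1.18). The members outside were Psmd5, Psmd13, Psmc4 and Psmd9 on the higher side and Psme3, Psmd8, Psmg1 and Psmb10 on the lower side. In both pairs 20 members (43.5%) had lower values in Csnk2b-deficient Tregs and 10 (21.7%) higher values, beside 29.2% and 27.6% of all features, and 16 had opposite signs. The WT lymph node library, which enters every lymph node ratio, had reads in the fewest features, and its part in this spread was not tested. All features tested were not matched to the members for read counts, and ratios of low counts scatter more. Whether read counts account for the tighter spread of the members was not tested.

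Across tissues the members' median log2 difference, lymph node minus spleen, was 1.84 beside -0.17 for all features tested. With upper-quartile scaling these medians were 1.68 and -0.32, 35 members were called higher and 4 lower, and no called member changed direction. By genotype the members' medians were 1.78 in WT and 1.90 in Csnk2b-deficient Tregs. Both lymph node libraries lay above both spleen libraries for 39 members (84.8%), beside 35.9% of all features tested, and below both for 4 members (8.70%), beside 40.7%. More than 2-fold higher levels in both genotypes were found for 31 members (67.4%, all features 20.1%). More than 2-fold lower levels in both were found for 2 members, Psmd3 and Psmb4 (4.35%, all features 20.2%).

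**Figure D4:**
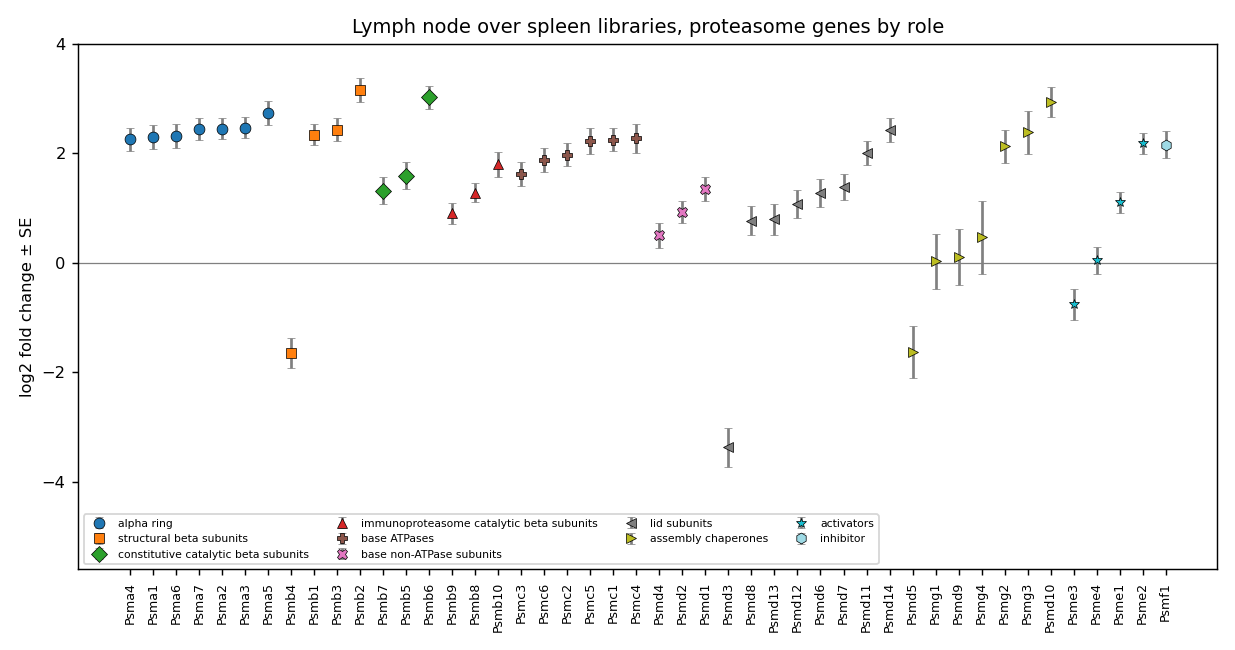
Log2 fold change between lymph node and spleen libraries (± SE, joint fit of 4 libraries) of the 46 members, ordered by role and then by value. Alpha subunits and base ATPases lie together between 1.62 and 2.73, while Psmb4, Psmd3, Psmd5 and Psme3 lie below 0.

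The tissue values of the members were alike in the genotypes, which share no library. Across the 46 genes the WT and Csnk2b-deficient tissue ratios had a Pearson correlation of 0.946 and a Spearman correlation of 0.908, beside 0.783 and 0.799 over all features. This is a description across genes, which are not independent, and all features were not matched to the members for read counts. The libraries of 1 tissue share the tissue and, in the order of listing, the kit. Psmd3 and Psmb4 had the same values in both genotypes (-3.31 and -3.33, and -1.62 and -1.66). Psmd5 (-2.41 and -0.85) and Psme3 (-0.32 and -1.20) differed more.

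**Figure D5:**
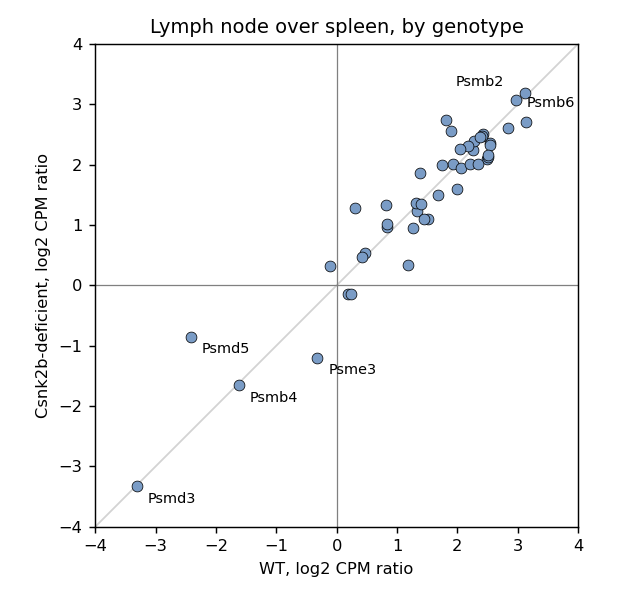
Log2 CPM ratio of lymph node over spleen in WT (x axis) and Csnk2b-deficient Tregs (y axis) of the 46 members, 1 point per gene, with the line of equal values in grey. Most members lie near the line at the upper right, and Psmd3 and Psmb4 lie on it at the lower left.

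Members differ from other features in transcript length more than in base composition. Their longest coding transcripts had a median length of 1490.5 bases, beside 3142.5 for the 9430 of 11112 features (84.9%) with a GENCODE M21 transcript, and a median GC content of 50.4% beside 49.9%. Over all features the tissue value went down with GC content (Spearman -0.39) and with length (-0.28), as correlations across genes. Within the members the same correlations were -0.27 and -0.33 (n = 46). Exon reads made up 83.4%, 82.1%, 88.6% and 88.0% of the members' gene reads in the 4 libraries, beside 77.3%, 76.2%, 78.0% and 78.9% over all features. Whether length, GC content or kit had a part in the tissue values was not tested.

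Genes that work with the proteasome but carry other names had mixed tissue values. Of 11 partners, 4 were higher and 1 lower in the lymph node (23.3% and 22.2% of all features tested), with a median of -0.17 on the log2 scale. Shfm1, the smallest lid component, had 60.9, 71.6, 198 and 269 CPM, a tissue value of 1.81 ± 0.23 and a genotype value of 0.34 ± 0.22. Pomp, the chaperone of the beta ring, had a tissue value of 2.04 ± 0.22 and a genotype value of -0.02 ± 0.21. The nuclear import factor gene Akirin2 had 41.9, 30.96, 20.8 and 18.2 CPM, with a genotype value of -0.32 ± 0.38. The axis around NRF1, the factor that induces proteasome genes when proteasomes are short, was taken as 6 genes. Of these, 1 was higher and 3 lower in the lymph node (23.3% and 22.2% of all features tested). Nfe2l1, which encodes NRF1, had 82.8, 86.8, 22.2 and 7.02 CPM (tissue log2 -2.70 ± 0.44), opposite in direction to most members. Nfe2l2, which encodes the related NRF2, had 31.3, 37.7, 49.6 and 102 CPM (1.05 ± 0.32). The ubiquitin ligase gene Syvn1 had a tissue value of -3.40 ± 0.41. Their genotype values were -0.68 ± 0.42 for Nfe2l1, 0.66 ± 0.32 for Nfe2l2 and -0.48 ± 0.38 for Syvn1.

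Of 13 ubiquitin and shuttle factor genes, 3 were higher and 4 lower in the lymph node (23.3% and 22.2% of all features tested). The polyubiquitin gene Ubb (3.49 ± 0.16) was among the higher. Ubqln4, a shuttle factor gene, had 67.5, 50.5, 51.3 and 28.5 CPM and a genotype value of -0.63 ± 0.32. The 11 genes of class I antigen processing had a median tissue value of -0.50, with 2 higher and 6 lower (23.3% and 22.2% of all features tested). The 3 immunoproteasome subunits were all higher. Tap2 had a tissue value of -3.14 ± 0.23 and B2m one of 2.18 ± 0.19. Tapbpl, a peptide-loading factor gene, had 46.7, 39.3, 91.1 and 53.3 CPM and a genotype value of -0.51 ± 0.30. In the genotype test edgeR, DESeq2 and limma-voom each called 0 genes of these 4 lists (0.144%, 0.45% and 0.558% of all features tested). At an unadjusted p below 0.05 edgeR had 2 genes of the ubiquitin list, 1 of the class I list and 0 of the others (4.88% of all features tested). B2m had a genotype value of 0.55 ± 0.18 (edgeR adjusted p = 0.763), with 17.8% of reads unique.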

How the data were processed

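Per the submitters' processing notes the reads were handled with CASAVA 1.8.2 and the build mm9, and aligner, annotation and strand were not given in the sources used here. Per the file headers the deposited tables hold counts of unique and total reads over exons and genes, and the authors' total exon counts were used. CPM and reads per kilobase were computed here for all 28030 features. The library sizes and TMM factors came from the 11112 features that passed the filter. The edgeR test (version 4.0.16, R 4.3.3) took features passing filterByExpr (tissue plus genotype, robust quasi-likelihood, prior degrees of freedom 10.1, 1 residual degree of freedom). The biological coefficient of variation was 30%. Pair ratios use a prior count of 2. Alternatives used DESeq2 1.42.0 and limma 3.58.1. The replicate number names the tissue in the labels, so the tissue term is the block. In each role the member with the largest genotype value was named, besides the catalytic subunits, activators and tissue calls. In outside lists, 2 genes by the smaller of their pair values were named, of which 1 is not reported here. Ubb, Pomp, Nfe2l1, Tap1 and Tap2 were named after their values were seen, or for the tissue. The members and lists were chosen with earlier results of these data known. The fitting script was tested on simulated data.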

Additional observations from a re-analysis of the deposited data

Results flagged for a closer look

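For 2 members the library labelled Csnk2b-deficient lay clearly below its WT partner in the spleen and clearly above it in the lymph node, by at least 0.25 on the log2 scale each way. Psmc5, a base ATPase gene, had -0.36 (spleen) and 0.29 (lymph node), a difference of 0.65. Psmd5, a chaperone gene of the base, had -0.29 and 1.28, a difference of 1.56, with 31 reads in the WT lymph node library. With 1 library per genotype and tissue the difference was not tested, and 16 members in all had opposite signs in the pairs.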

How the results depend on the processing

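No member was called between genotypes under any setting run, and no called tissue difference changed direction. The count of all features called between genotypes, 16 as reported, was 4 with median-of-ratios size factors, 111 without a filter, 50 with DESeq2, 62 with limma-voom, 7 with uniquely placed reads and 0 with no replicate block, and 0 to 1 when single libraries were left out as well. In that unpaired fit, leaving out a library unbalances the tissues. The members' median genotype value was then -0.66 (without WT spleen), 0.51 (without Csnk2b-deficient spleen), 1.24 (without WT lymph node) and -1.17 (without Csnk2b-deficient lymph node), compared with -0.11, and the spleen and lymph node pairs alone gave -0.045 and -0.13. The members' median tissue value was 1.68 with upper-quartile scaling. Tissue calls lost were Psmd13 and Psme3 (DESeq2, median of ratios), Psme3 (unique reads), and Psmd13 and Psmd8 (upper-quartile). The genotype difference of the immunoproteasome ratio (0.0058 in the spleen, 0.042 in the lymph node) was -0.034 and -0.091 from summed levels, -0.12 and -0.086 without Psmb9 and Psmb6, 0.11 and 0.16 without Psmb10 and Psmb7, and -0.19 and -0.11 on unique reads, without Psmb9 and Psmb6. The deposited rows kept apart, the GENCODE lengths and levels from unique reads were alternatives added after seeing the data. Depth limits several chaperones and the lid gene Psmd3 most, with 31 and 86 reads for Psmd5 and 39 and 34 for Psmd3 in the lymph node.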

Other observations

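A list of 17 regulators and induced genes of the interferon gamma response, which induces the immunoproteasome subunits, was also read. Of the 17, 10 were higher and 1 lower in the lymph node libraries (edgeR), beside 23.3% and 22.2% of all features tested. Their median was 0.67 on the log2 scale. Irf1 had a tissue value of 0.81 ± 0.18 and was named after its value was seen. Between genotypes edgeR called 0 of the 17, and 3 had an unadjusted p under 0.05 (4.88% of all features did), while DESeq2 and limma-voom each called 1, Ifngr1. The chains of the interferon gamma receptor lay in opposite directions in both pairs, with Ifngr1 at 169, 261, 186 and 539 CPM (log2 1.08 ± 0.24, SE, edgeR adjusted p = 0.228) and Ifngr2 at 32.5, 22.5, 43.7 and 15.3 CPM (-1.01 ± 0.41, edgeR adjusted p = 0.89), in the order WT spleen, Csnk2b-deficient spleen, WT lymph node and Csnk2b-deficient lymph node.

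Of 15 proliferation genes, both pairs had higher Csnk2b-deficient values for 11 and lower ones for 1 (27.6% and 29.2% of all features tested), with a median log2 value of 0.77, and edgeR, DESeq2 and limma-voom each called 0, with 3, 2 and 4 genes at an unadjusted p under 0.05 (4.88%, 4.35% and 6.79% of all features tested). Birc5 had 43, 54, 31 and 152 reads and Bub1 18, 23, 0 and 69 reads in the same order.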
